A study of Mus musculus with 114 samples.

Results

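The 6 adipokine genes described here were followed in isolated adipocytes of mice that had eaten chow (CD) or a diet rich in fat (HFD). They are Lep, Adipoq, Retn, Agt, Nampt and Apln, which encode leptin, adiponectin, resistin, angiotensinogen, nicotinamide phosphoribosyltransferase and apelin. The genes were taken by symbol, and all 6 were found among the 29132 genes of the table. RNA-seq had been performed on the floating adipocyte fraction of collagenase-digested perigonadal fat from male C57BL/6J mice. Feeding began at 6 weeks of age and lasted 8, 20 or 34 weeks, and all mice were fasted before the tissue was taken. Each diet had 6 mice at 8 weeks and 6 at 20 weeks, whereas at 34 weeks there were 8 on CD and 6 on HFD, each mouse giving 1 value per gene. The mice of each time were separate animals, so a rise or fall between times is a difference between groups of mice. Time on diet, age and cohort cannot be told apart in it. The paper names alternative control diets, and the labels do not say which CD mice ate which. No engineered allele is named for either diet group, and the fat depot was the same in all 38 mice.

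Adipokines are proteins that fat tissue releases into the blood or onto neighbouring cells. Leptin reports the size of the fat stores to the brain and restrains feeding. Adiponectin is made almost entirely by adipocytes and acts through receptors in liver and muscle, and its plasma level is known to be low in obesity. Resistin is made by adipocytes in mice, angiotensinogen is the precursor that renin cuts to start the angiotensin cascade, NAMPT makes the NAD precursor nicotinamide mononucleotide, and apelin is the peptide ligand of the receptor Aplnr.

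In the mouse genome (GRCm38, RefSeq) Lep lies at chr6:29060221-29073876 on the plus strand, Adipoq at chr16:23146536-23157968 on the plus strand, Retn at chr8:3655770-3659818 on the plus strand, Agt at chr8:124556587-124569706 on the minus strand, Nampt at chr12:32820335-32853369 on the plus strand and Apln at chrX:48025146-48034853 on the minus strand. All 6 are protein-coding genes. The promoters of the member that rose, of the member with the highest level and of the member that fell most are shown here, because the results below turn on these genes. Each window holds the 250 bases before and the first 50 bases after the RefSeq start site (GRCm38.p6) and is written on the strand of the gene. Capitals mark TATAA (the TATA box core), CCAAT (the CCAAT box), TTGCGCAA (a palindromic C/EBP site) and AGGTCA (a nuclear receptor element), searched on both strands.
Lep, chr6:29059971-29060270, plus strand: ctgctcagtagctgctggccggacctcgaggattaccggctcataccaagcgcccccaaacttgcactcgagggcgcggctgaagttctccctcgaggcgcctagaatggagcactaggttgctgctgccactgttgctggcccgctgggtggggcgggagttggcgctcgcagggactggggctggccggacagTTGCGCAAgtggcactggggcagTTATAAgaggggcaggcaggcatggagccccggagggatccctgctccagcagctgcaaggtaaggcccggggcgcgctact
Adipoq, chr16:23146286-23146585, plus strand: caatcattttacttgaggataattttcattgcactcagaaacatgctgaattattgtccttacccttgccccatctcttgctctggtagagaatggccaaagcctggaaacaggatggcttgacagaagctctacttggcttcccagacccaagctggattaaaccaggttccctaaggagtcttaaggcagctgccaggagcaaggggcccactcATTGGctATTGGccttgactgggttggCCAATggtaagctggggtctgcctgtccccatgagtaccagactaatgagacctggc
Agt, chr8:124569657-124569956, minus strand: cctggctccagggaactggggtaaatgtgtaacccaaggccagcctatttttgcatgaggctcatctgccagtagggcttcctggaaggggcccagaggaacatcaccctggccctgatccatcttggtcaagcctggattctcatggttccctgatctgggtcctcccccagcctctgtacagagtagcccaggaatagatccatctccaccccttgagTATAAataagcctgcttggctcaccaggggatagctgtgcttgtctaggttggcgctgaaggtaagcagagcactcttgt
The Lep window held TTGCGCAA 55 bases before the start and, closer to it, TTATAA, in which the TATAA of both strands overlap. TTGCGCAA was present in 0.183% of the 32851 mouse promoters of the same length, and TATAA in 24.9%. In Agt, TATAA stood 30 bases before the start. The Adipoq window had no TATAA but CCAAT at 34, 27 and 7 bases before the start, the last in the written direction and the others on the opposite strand, and 37.4% of promoters held CCAAT. Among the remaining members, Nampt held AGGTCA (16.3% of promoters) 151 bases before the start, and Retn and Apln held none of the 4 motifs. These matches describe letters only, and binding of a factor was not measured.

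Values are CPM, the reads of a gene divided by all reads on listed genes of that mouse and scaled to a sum of 1000000. Libraries held between 9275711 and 15480388 such reads, so that 1 read was worth 0.0646 to 0.108 CPM. At 8 weeks the depth did not overlap between the diets, 10562845 to 12611013 reads for CD against 13201234 to 15480388 for HFD. Depth also separated times within a diet. CD mice of 20 weeks had 13091365 to 14292115 reads, above all CD mice of 8 weeks and of 34 weeks (9275711 to 12433584). HFD mice of 34 weeks had 10714545 to 12271651 reads, below all HFD mice of 8 weeks and of 20 weeks (13159018 to 14961360). The fraction had the defining adipocyte transcripts in every mouse, with 13 of 13 markers detected and a summed level of 24300 to 65293 CPM. Macrophage markers moved with the diet: their summed level (15 of 16 markers in the table) at 8 weeks was 441 to 2085 CPM in CD against 1355 to 4402 CPM in HFD, 1060.5 to 4412 against 6125 to 12808 CPM at 20 weeks and 1425 to 16244 against 7187 to 21462 CPM after 34 weeks. Markers of stromal cells moved with it too: of 8 tested progenitor and fibroblast markers 5, 8 and 4 were higher in HFD at the 3 times (medians 1.37, 2.04 and 0.80) and of 6 mural markers 5, 4 and 3 (medians 1.47, 1.07 and 0.71). Over all 10343 genes tested, 3083, 3957 and 2840 passed the same test as higher in HFD at these times. The part of macrophages and stromal cells in the member differences was not tested. The mean log2 level of the macrophage markers entered some fits as a covariate. At 20 weeks it was 4.79 to 7.75 in CD and 8.03 to 9.01 in HFD mice, without overlap. Diet and marker level are thus not separable there, and calls kept or lost with the covariate do not settle the part of macrophages. The 5 neutrophil markers summed to at most 44.3 CPM in any mouse. Ly6g among them was at 0 in all 38 mice, S100a8 reached 24 CPM and was higher in HFD at 8 weeks (1.56, limma, adjusted p = 0.0034), and Csf3r reached 26.9 CPM. The 5 T cell markers summed to at most 2.95 CPM, of which Cd2 reached 2.58 CPM and Cd3e 0.368 CPM. In bulk RNA of a fraction, fewer cells of a type and less RNA per cell cannot be told apart.

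Compared per kilobase of exon, Adipoq stood far above the other adipokines. Its group means ran from 2521 to 4244 CPM per kb, those of Lep from 117 to 1267, Retn from 233 to 1169, Agt from 10.6 to 359, Nampt from 26.3 to 52.4 and Apln from 0.475 to 1.43 CPM per kb. The spread over the 38 mice ordered the genes differently. Lep varied 195-fold between the lowest and the highest mouse and Agt 82.3-fold, whereas Adipoq varied 3.22-fold and Nampt 2.96-fold. The plot of levels by mouse shows these ranges.

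**Figure D1:**
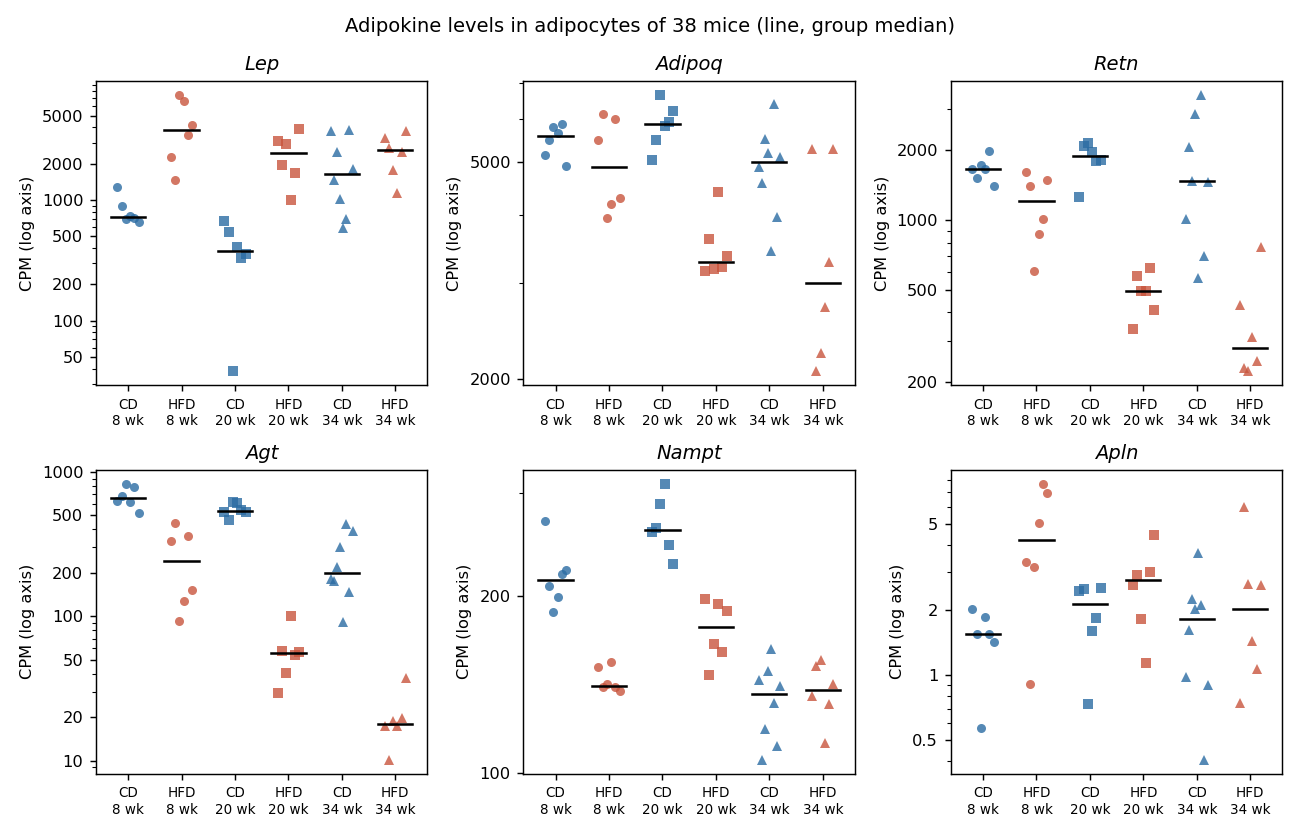
Each point is the CPM of 1 mouse on a log axis, in 6 panels by gene, with CD groups in blue, HFD groups in red and a black line at the group median. Lep was higher in every HFD than in every CD mouse at 8 and 20 weeks, and Agt was lower in every HFD than in every CD mouse at all 3 times.

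The diets were compared at each time by limma on log2(CPM + 1), and Benjamini-Hochberg adjustment covered the 10343 genes that passed the filter on low values. Of the members, 5 passed it and Apln did not. A gene with an adjusted p under 0.05 is called. At 8 weeks 3 members were called, 1 higher and 2 lower in HFD, where 44.9% of all genes tested were called. At 20 weeks all 5 tested members were called, 1 higher and 4 lower, against 57% of all genes. At 34 weeks 3 were called, all lower, against 43.2% of all genes. The ranges of the diets did not overlap for 3 members at 8 weeks, 5 at 20 weeks and 1 at 34 weeks, where 22.8%, 37.2% and 2.46% of all genes had groups without overlap. The median log2 fold change of the 5 tested members was -0.58, -0.75 and -0.57 at the 3 times, beside 0.11, 0.14 and 0.07 over all genes tested. CPM are relative to the sum over all genes: with TMM factors the median of all genes moved to 0.00 at 8, -0.05 at 20 and -0.015 at 34 weeks, and calls over all genes from 3083 higher and 1565 lower to 2289 and 2318 at 8 weeks. The 11 called diet differences of the members kept their direction and call under TMM factors.

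Lep, the leptin gene, rose most among the members. At 8 weeks the lowest, median and highest CD mice had 654, 723 and 1278 CPM and the HFD mice 1472, 3799 and 7449.9 CPM. No HFD mouse was as low as the highest CD mouse, and the HFD mice differed among themselves by 5.06-fold. The log2 fold change was 2.18 (SE 0.52, n = 6 and 6, limma, adjusted p = 0.00118), a 4.53-fold difference. At 20 weeks the CD mice had 38.2, 380.3 and 674 CPM and the HFD mice 1008, 2443 and 3911 CPM, again without overlap. The log2 fold change was the largest for Lep, 2.90 (SE 0.52, limma, adjusted p = 1.78e-05), 7.44-fold on the linear scale. The change of the diet difference from 8 to 20 weeks, 0.72, did not pass the test (95% interval -0.77 to 2.20, limma, adjusted p = 0.528). At 34 weeks the diets overlapped throughout: the CD mice had 591, 1631 and 3833 CPM and the HFD mice 1136, 2600.2 and 3733 CPM. No HFD mouse lay above the highest or below the lowest CD mouse, and the log2 fold change of 0.56 did not pass the test (95% interval -0.42 to 1.54, limma, adjusted p = 0.351).

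Leptin expression of CD mice was higher at 34 than at 20 weeks. Between 20 and 34 weeks Lep in CD mice rose by 2.41 on the log2 scale (SE 0.48, limma, adjusted p = 7.21e-05), and 7 of 8 mice at 34 weeks lay above all mice at 20 weeks. Against 8 weeks the CD mice of 34 weeks had 0.97, which did not pass the test (95% interval -0.01 to 1.95, limma, adjusted p = 0.0757). It passed with edgeR (1.235, adjusted p = 0.0172), with array weights (1.56, limma, adjusted p = 0.00122) and in 3 of 38 fits without a mouse. In HFD mice the step from 20 to 34 weeks gave 0.08 (95% interval -0.97 to 1.13, limma, adjusted p = 0.921). The difference between the diets in this step was -2.33 (SE 0.71, limma, adjusted p = 0.0296). That call was lost without CD mouse 3 of 20 weeks, which had 38.2 CPM (-1.75, adjusted p = 0.0601), as in 6 of the 38 fits that leave out a mouse, with the mouse number as a block (-2.09, adjusted p = 0.0672) and without the filter (adjusted p = 0.0509). The change of the diet difference from 8 to 34 weeks was -1.62 and did not pass the test (95% interval -3.05 to -0.18, limma, adjusted p = 0.0809). It passed with edgeR (-1.99, adjusted p = 0.0204), with array weights (-2.54, limma, adjusted p = 0.00067) and in 3 of 38 fits without a mouse. In order of group means the sequence was CD 20 weeks, CD 8 weeks, CD 34 weeks, HFD 20 weeks, HFD 34 weeks and HFD 8 weeks. No neighbours in this order differed by more than the larger of their SDs. The comparisons within a diet and between diets share groups and are not independent of each other.

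Adipoq, the adiponectin gene, was lower in HFD mice at 20 and 34 weeks. At 8 weeks the CD mice had 4932, 5580.5 and 5892 CPM and the HFD mice 3959.5, 4905 and 6148 CPM. The groups overlapped, with 2 HFD mice above and 3 below all CD mice, and the log2 fold change of -0.15 did not pass the test (95% interval -0.52 to 0.22, limma, adjusted p = 0.514), although it did with array weights (-0.32, limma, adjusted p = 0.016). Array weights called 7032 of 10343 genes at this time, where the reported fit called 4648. At 20 weeks the CD mice had 5052, 5881 and 6652.5 CPM and the HFD mice 3163, 3289 and 4409 CPM. Every HFD mouse lay below every CD mouse, and Adipoq fell by 0.75 on the log2 scale (SE 0.18, limma, adjusted p = 0.000709), which is 1.68-fold lower. At 34 weeks the CD mice had 3442, 5011 and 6396 CPM and the HFD mice 2068, 2998 and 5297 CPM. Of the HFD mice, 4 lay below all CD mice and the other two, mice 1 and 6, were at 5296 and 5297 CPM, within the CD range. The fall was 0.57 on the log2 scale (SE 0.17, limma, adjusted p = 0.00729).

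At 8 weeks, where the Adipoq difference did not pass the test, 11 of 15 macrophage markers were called higher in HFD. At 20 and 34 weeks 12 and 14 of them were. Of all 10343 genes, 3083, 3957 and 2840 were called higher at the 3 times. With the mean log2 level of the macrophage markers as a covariate, the Adipoq values became -0.22 at 20 weeks (limma, adjusted p = 0.429) and -0.23 at 34 weeks (limma, adjusted p = 0.378), and neither passed the test. The part of macrophages in the Adipoq difference was not tested. The fall at 34 weeks also missed the threshold when genes of low level were kept (limma, adjusted p = 0.0547) and when the 2 groups were fitted alone (limma, adjusted p = 0.0939). Other adipocyte transcripts moved in the same direction: 9 of 13 adipocyte markers were lower at 20 weeks and 8 at 34 weeks, with a median of -0.64 and -0.57, where 18.7% and 15.7% of all genes were lower (15.1% at 8 weeks, against 2 of 13 markers). In the fit with the macrophage covariate 1 and 2 of the 13 were lower at 20 and 34 weeks, with medians of -0.11 and -0.21. Of all 10343 genes, 774 and 392 were lower in that fit. Between 8 and 20 weeks Adipoq did not pass the test in CD mice (0.09, limma, adjusted p = 0.844) and fell by 0.51 in HFD mice (SE 0.18, limma, adjusted p = 0.0277), a call lost in 6 of 38 fits without a mouse, without the filter (adjusted p = 0.132) and with the macrophage covariate (-0.11, adjusted p = 0.795). The change of the diet difference did not pass the test from 8 to 20 weeks (-0.60, 95% interval -1.12 to -0.08, limma, adjusted p = 0.131) or from 8 to 34 weeks (-0.42, 95% interval -0.93 to 0.08, limma, adjusted p = 0.202). The former passed with array weights (-0.50, limma, adjusted p = 0.0114).

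The ratio of Lep to Adipoq CPM set the opposite directions side by side in each mouse and is given as a description without a test. Among CD mice the lowest, median and highest ratios were 0.12, 0.132 and 0.247 at 8 weeks, 0.00574, 0.0635 and 0.133 at 20 weeks and 0.109, 0.336 and 0.964 at 34 weeks. Among HFD mice they were 0.239, 0.77 and 1.88, then 0.229, 0.731 and 1.16, then 0.418, 0.735 and 1.3. The HFD medians thus stood near the same level at all 3 times, and the CD medians moved.

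**Figure D2:**
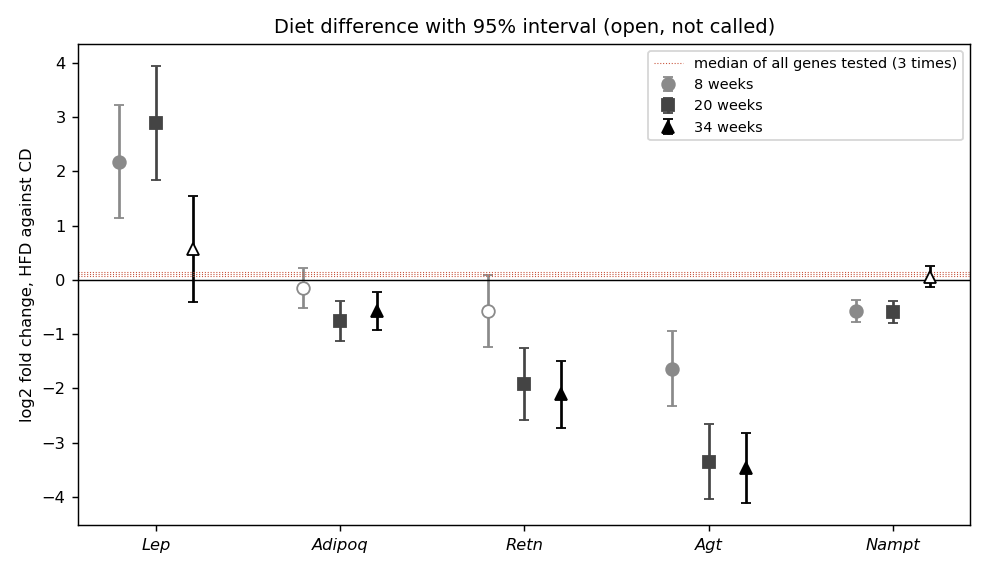
Each point is the log2 fold change of HFD against CD for a gene at 8, 20 or 34 weeks, the bars are 95% intervals from limma, open points are not called and dotted red lines mark the median of all genes tested at each time. Lep was called above 0, with 2.18 and 2.90 at 8 and 20 weeks, and Agt reached -3.47 at 34 weeks.

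Retn, the resistin gene, was lower in HFD mice at 20 and at 34 weeks. The CD mice of 8 weeks had 1396, 1662 and 1991 CPM and the HFD mice 601, 1206 and 1613 CPM. Of the HFD mice, 3 lay below all CD mice, and the log2 fold change of -0.58 did not pass the test (95% interval -1.25 to 0.08, limma, adjusted p = 0.144). It did pass when the 2 groups were fitted alone (limma, adjusted p = 0.0351). With array weights, which called 7032 of 10343 genes at this time, it passed as well (-0.69, limma, adjusted p = 0.0077). At 20 weeks the CD mice had 1255, 1889 and 2149.9 CPM and the HFD mice 341, 495 and 622 CPM, without overlap. Retn fell by 1.92 on the log2 scale (SE 0.33, limma, adjusted p = 9.78e-06), 3.78-fold lower. At 34 weeks the CD mice spread over 561, 1470.0 and 3466 CPM and the HFD mice had 223, 280.4 and 766 CPM, and 5 of 6 HFD mice lay below all CD mice. It fell by 2.11 (SE 0.31, limma, adjusted p = 1.06e-05), 4.32-fold. With the macrophage covariate the values were smaller and still passed the test, -0.99 at 20 weeks (limma, adjusted p = 0.0408) and -1.52 at 34 weeks (limma, adjusted p = 0.00114).

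The Retn difference was wider at 34 than at 8 weeks. HFD mice fell by 1.20 between 8 and 20 weeks (SE 0.33, limma, adjusted p = 0.00521) and by 1.73 between 8 and 34 weeks (SE 0.33, limma, adjusted p = 6.31e-05), calls that did not hold with the macrophage covariate (-0.48 and -0.82, limma, adjusted p = 0.415 and 0.0972). CD mice changed by -0.20 from 8 to 34 weeks, which did not pass the test (95% interval -0.83 to 0.42, limma, adjusted p = 0.569). The diets differed in the step from 8 to 34 weeks by -1.53 (SE 0.45, limma, adjusted p = 0.0105). The changes of the diet difference from 8 to 20 weeks (-1.34, 95% interval -2.28 to -0.40, limma, adjusted p = 0.0747) and from 20 to 34 weeks (-0.19, 95% interval -1.10 to 0.72, limma, adjusted p = 0.818) did not pass the test. The former passed with array weights (-1.35, limma, adjusted p = 0.0009) and in 3 of 38 fits without a mouse (lowest adjusted p = 0.0408). In order of group means, HFD 20 weeks and HFD 8 weeks were the neighbours that differed by more than the larger SD, and their ranges overlapped.

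Agt, the angiotensinogen gene, showed the largest fall and was the member lower at all 3 times. CD mice at 8 weeks had 519, 657 and 832 CPM and the HFD mice 92.1, 242 and 446 CPM. At 20 weeks the CD mice had 461, 537 and 623 CPM and the HFD mice 29.3, 55.4 and 100.4 CPM. At 34 weeks the CD mice had 90.9, 200.6 and 439 CPM and the HFD mice 10.1, 18.1 and 37.2 CPM. All HFD mice lay below all CD mice at each time, although the CD mice themselves were lower at 34 weeks. Agt fell by 1.64 at 8 weeks (SE 0.34, limma, adjusted p = 0.000317), fell by 3.35 at 20 weeks (SE 0.34, limma, adjusted p = 8.46e-09) and fell by 3.47 at 34 weeks (SE 0.32, limma, adjusted p = 9.5e-09), which is 3.12-, 10.2- and 11.1-fold. With the macrophage covariate the falls were 0.99, 2.34 and 2.82, all past the threshold (limma, highest adjusted p = 0.0144). The lowest mouse of all still held 118 Agt reads, so counting error was small beside the spread between mice.

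Agt was also lower at later times within each diet. In CD mice it fell by 1.33 between 20 and 34 weeks (SE 0.32, limma, adjusted p = 0.000592), without overlap of the groups, and by 0.30 between 8 and 20 weeks, which did not pass the test (95% interval -0.99 to 0.40, limma, adjusted p = 0.709). HFD mice fell by 2.01 between 8 and 20 weeks (SE 0.34, limma, adjusted p = 8.28e-05) and by 1.44 between 20 and 34 weeks (SE 0.34, limma, adjusted p = 0.00238). The diet difference widened from 8 to 34 weeks by -1.83 (SE 0.47, limma, adjusted p = 0.00387). From 8 to 20 weeks it widened by -1.71 (SE 0.48, limma, adjusted p = 0.038), a call that was lost in 14 of 38 fits with 1 mouse left out (highest adjusted p = 0.0712) and with the mouse number as a block (adjusted p = 0.0526). In order of group means the sequence was HFD 34, HFD 20 and HFD 8 weeks, then CD 34, CD 20 and CD 8 weeks, and HFD 8 and CD 34 weeks differed by less than the larger SD.

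Nampt, the gene of the NAD salvage enzyme, fell at the earlier times and not at 34 weeks. CD mice at 8 weeks had 188, 213 and 269 CPM and the HFD mice 138, 141 and 154 CPM. At 20 weeks the CD mice had 227, 259 and 311 CPM and the HFD mice 147, 177 and 198 CPM. The diets did not overlap at either time. Nampt fell by 0.58 at 8 weeks (SE 0.10, limma, adjusted p = 4.05e-05) and by 0.59 at 20 weeks (SE 0.10, limma, adjusted p = 9.88e-06), both 1.5-fold. At 34 weeks the CD mice had 105, 136 and 163 CPM and the HFD mice 112, 138 and 156 CPM. The HFD range lay inside that of CD, and the log2 fold change was 0.06 (95% interval -0.13 to 0.25, limma, adjusted p = 0.618), with the sign turning under other scalings of the libraries (-0.03 with TMM factors). The macrophage covariate left the earlier falls at 0.57 and 0.56 (limma, adjusted p = 0.000434 and 0.00268).

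Nampt in CD mice was lower at 34 weeks, at the level of HFD mice. It fell by 1.00 between 20 and 34 weeks (SE 0.09, limma, adjusted p = 2.75e-10), and all 8 mice at 34 weeks lay below all mice at 20 weeks. HFD mice fell by 0.35 in that step (SE 0.10, limma, adjusted p = 0.00997) and rose by 0.28 between 8 and 20 weeks (SE 0.10, limma, adjusted p = 0.0306), the latter a call lost in 5 of 38 fits without a mouse, with TMM factors (adjusted p = 0.0829) and with the macrophage covariate (adjusted p = 0.153). The diets differed in the step from 20 to 34 weeks by 0.65 (SE 0.14, limma, adjusted p = 0.00357) and from 8 to 34 weeks by 0.64 (SE 0.14, limma, adjusted p = 0.000822).

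The background of these steps in time differed widely. In CD mice 3.58% of all genes tested were called between 8 and 20 weeks and no member was, with Lep and Nampt at an unadjusted p of 0.00843 and 0.00772 and 2 members called under array weights. Between 20 and 34 weeks 62.5% of genes and 3 members were called in CD mice, and between 8 and 34 weeks 64.7% and 2 members. In HFD mice the shares were 36.5% with 4 members between 8 and 20 weeks, 30.2% with 2 between 20 and 34 weeks and 52.5% with 3 between 8 and 34 weeks. The diet difference changed in 4.49% of genes and 1 member from 8 to 20 weeks, in 10.5% and 2 members from 20 to 34 weeks, and in 28.8% and 3 members from 8 to 34 weeks. Non-overlap of CD mice at 20 and 34 weeks, as for Agt and Nampt, was found in 20% of all genes.

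Apln, the apelin gene, was near the limit of detection and was not among the genes tested. At 8 weeks the CD mice had 0.568, 1.55 and 2.03 CPM and the HFD mice 0.909, 4.19 and 7.67 CPM, which rested on 6 to 23 and on 12 to 104 reads. In HFD, 5 of 6 mice lay above all CD mice and HFD mouse 2 within their range. At 20 weeks the CD and HFD medians were 2.14 and 2.76 CPM, and at 34 weeks 1.81 and 2.02 CPM, with overlapping ranges. In a fit of all 21166 genes with a read in any mouse, Apln was higher in HFD by 1.01 at 8 weeks (SE 0.32, limma, adjusted p = 0.019), where 24.3% of these genes were called. The values of 0.29 and 0.24 at 20 and 34 weeks did not pass the test (limma, adjusted p = 0.538 and 0.627). Endothelial markers, which moved with the diet as well, at 8 weeks had summed levels of 32.7 to 323 CPM in CD against 96.2 to 490 CPM in HFD, and all 10 were higher in HFD (median 1.28). At 20 and at 34 weeks, where Apln did not pass the test, 7 of the 10 were higher (medians 1.09 and 1.12). Of all 10343 genes tested, 3083, 3957 and 2840 were called higher at 8, 20 and 34 weeks. The part of endothelial cells in the Apln difference was not tested.

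Adipoq, Retn and Agt varied together from mouse to mouse, and Lep varied weakly in the opposite direction. Over the 38 mice Pearson's r on the log2 scale was 0.86 for Adipoq and Retn (Spearman's rho 0.8), 0.84 for Adipoq and Agt (rho 0.79) and 0.90 for Retn and Agt (rho 0.83). After each value was set against its group mean, r remained 0.69, 0.73 and 0.68. For Lep r was -0.44 with Adipoq, -0.50 with Retn and -0.55 with Agt over all mice, and -0.15, -0.27 and -0.34 within groups (rho -0.27, -0.35 and -0.44), and for Nampt and the other tested members the values within groups lay between -0.15 and -0.04. The mice share their groups, library depth and scaling to a fixed total, so these values are descriptions. In HFD mice at 8 weeks, mice 3 and 4 had the highest Lep (7449.9 and 6688 CPM) and the lowest Adipoq (3959.5 and 4186 CPM), Agt (92.1 and 128 CPM) and Retn (601 and 873 CPM). These mice also had the highest macrophage marker level of the group, a mean log2(CPM + 1) of 7.51 and 7.15 against 5.94 to 7.13 in the others. In CD mice at 34 weeks, mouse 5 had the lowest Lep, Adipoq, Retn and Agt of its group, with 591, 3442, 561 and 90.9 CPM, and the highest macrophage marker level, 9.35 against 5.92 to 8.61 in the others. The part of these cells in the shared variation was not tested.

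**Figure D3:**
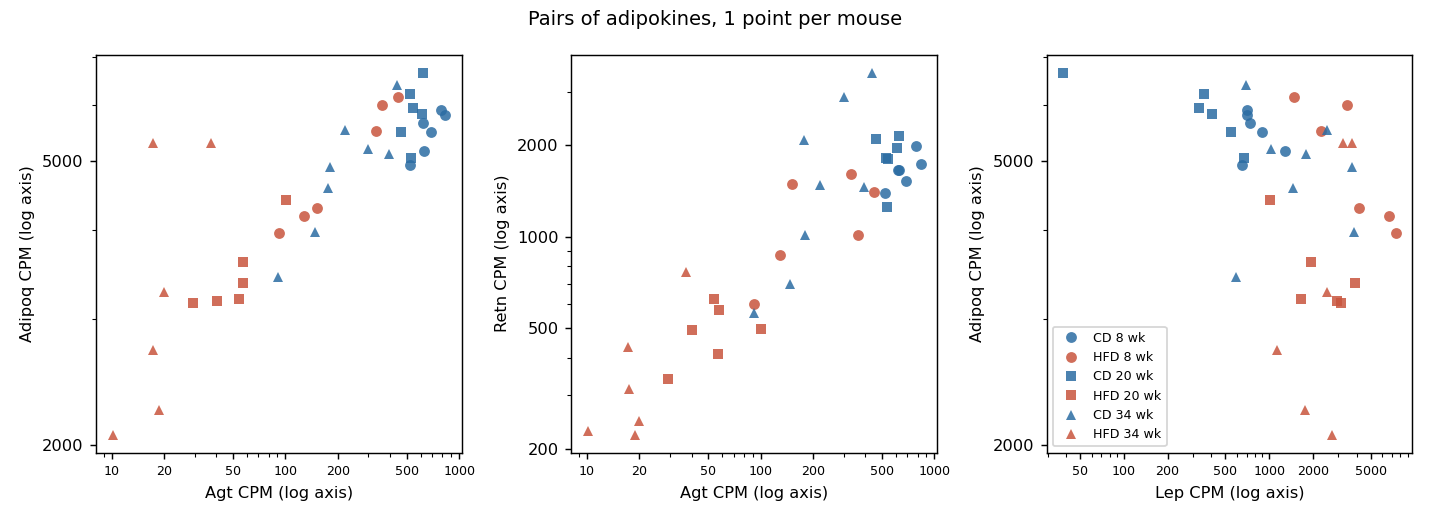
Each point is 1 mouse on log axes, with Adipoq against Agt, Retn against Agt and Adipoq against Lep in CPM, blue for CD, red for HFD and the marker shape for the time on diet. The points of the panels with Agt lie along a rising band (r = 0.84 and 0.90), from which HFD mouse 1 of 34 weeks stands off with 5296 CPM of Adipoq at 17.3 CPM of Agt, whereas those of Lep and Adipoq scatter (r = -0.44).

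The genes most like each member over the 38 mice were found by the same r. Lep was closest to Npr3, the clearance receptor of natriuretic peptides (r = 0.96, within groups 0.90), Sparc, a matrix-binding glycoprotein (0.96 and 0.89), and Igfbp5, which binds insulin-like growth factors (0.95 and 0.89). Adipoq was closest to Hibadh (0.95 and 0.90) and Aldh5a1 (0.95 and 0.89), mitochondrial dehydrogenases of valine and of GABA breakdown, and to Sdr39u1 (0.94 and 0.87). Retn was closest to Cdo1, which oxidises cysteine (0.95 and 0.85), Pacsin3 (0.94 and 0.83) and Alb, the albumin gene (0.94 and 0.84). Agt was closest to Gpx3, a secreted glutathione peroxidase (0.95 and 0.84), the beta-3 adrenergic receptor Adrb3 (0.95 and 0.79) and the complement gene C2 (0.94 and 0.75). For Nampt the likeness was mostly between groups, with Slc10a6 (0.91 and 0.50), Rad52 (0.90 and 0.38) and Cpd (0.90 and 0.37). Apln was closest to Afap1l1 (0.80 and 0.79), Nrarp (0.75 and 0.73) and Dll4, a Notch ligand of endothelial cells (0.74 and 0.71).

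Among receptors and partners of the adipokines, Adipor2, the more abundant adiponectin receptor in CPM, fell in HFD by 0.55, 0.86 and 0.58 at 8, 20 and 34 weeks. The other receptor, Adipor1, rose by 0.21, 0.33 and 0.20 in plain CPM, where the median of all genes was 0.11, 0.14 and 0.07, and its calls were lost with TMM factors (0.10, 0.13 and 0.11, limma, adjusted p = 0.216, 0.0815 and 0.146). Cdh13, which encodes the adiponectin-binding T-cadherin, rose by 1.33, 1.10 and 0.92. All of these passed the test in plain CPM (limma, highest adjusted p = 0.0267), and Adipor2 and Cdh13 also with TMM factors. With the macrophage covariate none of the 3 was called at any time (limma, lowest adjusted p = 0.0687). Cap1, reported as a resistin receptor, rose by 0.59, 1.42 and 1.12 (limma, highest adjusted p = 0.0107), of which the value at 8 weeks was lost with the covariate (0.11, limma, adjusted p = 0.541). The leptin receptor Lepr was below the filter, with at most 1.2 CPM in any mouse. The apelin receptor Aplnr was below it too, with means of 0.565, 0.647 and 1.15 CPM for CD against 2.87, 2.59 and 3.89 CPM for HFD.

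In the renin-angiotensin system Enpep fell with Agt at 20 and 34 weeks and Ace rose at 8 and 20 weeks. Ren1 (renin) was at 0 in all CD mice and at most 2.5 CPM in any mouse, the angiotensin receptor gene Agtr1b was at 0 in all mice, and Agtr1a was at most 5.48 CPM. Ace, the angiotensin-converting enzyme, rose by 1.28 at 8 weeks and 2.45 at 20 weeks (limma, adjusted p = 0.00383 and 8.5e-07) and had a value of 0.70 at 34 weeks that did not pass (limma, adjusted p = 0.0828). Atp6ap2, the prorenin receptor, rose by 0.86 and 0.72 at 20 and 34 weeks (limma, adjusted p = 0.000371 and 0.00222). Enpep, the aminopeptidase that trims angiotensin II, fell by 1.80 and 2.23 at these times (limma, adjusted p = 1.24e-06 and 2.36e-07), and had -0.18 at 8 weeks (adjusted p = 0.602). Of 7 tested genes of 15 in the list, 3, 6 and 4 were called at the 3 times, beside 44.9%, 57% and 43.2% of all genes, with a median of 0.58, 1.04 and 0.61. The medians were 0.18, 0.05 and -0.10 with the macrophage covariate. The calls of Enpep and that of Ace at 20 weeks held with it, whereas Ace at 8 weeks (0.49, limma, adjusted p = 0.181) and Atp6ap2 at 20 and 34 weeks (0.05 and 0.21, limma, adjusted p = 0.837 and 0.288) no longer passed the test.

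Around NAMPT, the next enzyme of the salvage route was tested in both of its forms that passed the filter. Nmnat3, the mitochondrial form, fell by 1.06 and 1.02 at 8 and 20 weeks (limma, adjusted p = 9.02e-05 and 4.97e-05) and had -0.33 at 34 weeks (limma, adjusted p = 0.146). Nmnat1, the nuclear form, had 0.28 and -0.06 at the earlier times and fell by 0.39 at 34 weeks (limma, adjusted p = 0.00542). Nnmt, which removes nicotinamide by methylation, fell by 0.95 at 20 weeks (limma, adjusted p = 0.00014). Of the 11 tested genes of NAD salvage and use, 3, 5 and 4 were called, with medians of 0.08, -0.18 and -0.18, shares below those of all genes at each time (44.9%, 57% and 43.2%). Under TMM factors 2, 7 and 6 of the 11 were called, where 4607, 6050 and 4544 of 10339 genes were. The shares of the list were then above those of all genes at 20 and 34 weeks and below at 8 weeks.

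The remaining lists had called members in both directions at most times, and their counts stand beside 44.9%, 57% and 43.2% of all genes called at the 3 times. Of 9 leptin signalling genes 7, 5 and 5 were called, with medians of -0.63, -0.17 and 0.13, of 11 genes of adiponectin assembly and receptors 7, 6 and 8 (0.10, 0.07 and 0.13), of 3 of the resistin family and receptors 3, 2 and 2 (0.59, -0.29 and 0.44) and of 4 of the apelin system 3, 4 and 2 (-0.23, -0.10 and 0.30). The 4 tested genes of the apelin list were Furin, Mme, Hif1a and Vegfa. Aplnr was below the filter and Apela was not analysed, so these counts do not cover the apelin receptor. Of 13 transcription factors of adipokine genes 6, 4 and 8 were called, all lower except 1 at 34 weeks (medians -0.39, -0.25 and -0.38). Of 25 genes listed as other secreted adipocyte factors 17, 18 and 14 were called, with medians of -0.06, -0.06 and -0.18. This list also held the receptor gene Npr3, which was called at 8 and 20 weeks (1.59 and 2.20). With the macrophage covariate the counts of most lists were lower. They were 2, 1 and 0 of adiponectin assembly and receptors, 2, 4 and 1 of the renin-angiotensin system, 3, 1 and 1 of the transcription factors, 12, 14 and 6 of the other secreted factors and 6, 3 and 3 of leptin signalling at the 3 times, where 3517, 2415 and 1057 of all genes were called. Counts of the smaller lists were 1, 3 and 1 (resistin), 2, 3 and 2 (apelin) and 4, 3 and 2 (NAD), so that not all of them were lower. In the fit without the covariate 22 of 83 tested genes were called in the same direction at all 3 times, 16 higher and 6 lower, where 15.6% of all genes were, 1263 higher and 350 lower. With TMM factors it was 21 of 83, 10 higher and 11 lower, where 15.2% of all genes were, 935 higher and 639 lower. With the macrophage covariate it was 7, 3 higher and 4 lower, where 1.22% of all genes were, 73 higher and 53 lower. The largest at their weakest time were Cfd, which encodes adipsin and had -2.76, -4.03 and -2.70, Fstl1, a secreted glycoprotein that rose by 2.504, 4.53 and 2.81, Anpep, an aminopeptidase that rose by 2.68, 4.72 and 1.87, and Tnf, the cytokine, which rose by 1.71, 2.68 and 1.72 (limma, highest adjusted p = 0.032). With the covariate Cfd and Fstl1 were called at all 3 times, Anpep at 8 and 20 weeks, and Tnf at none (highest value 0.29).

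**Figure D4:**
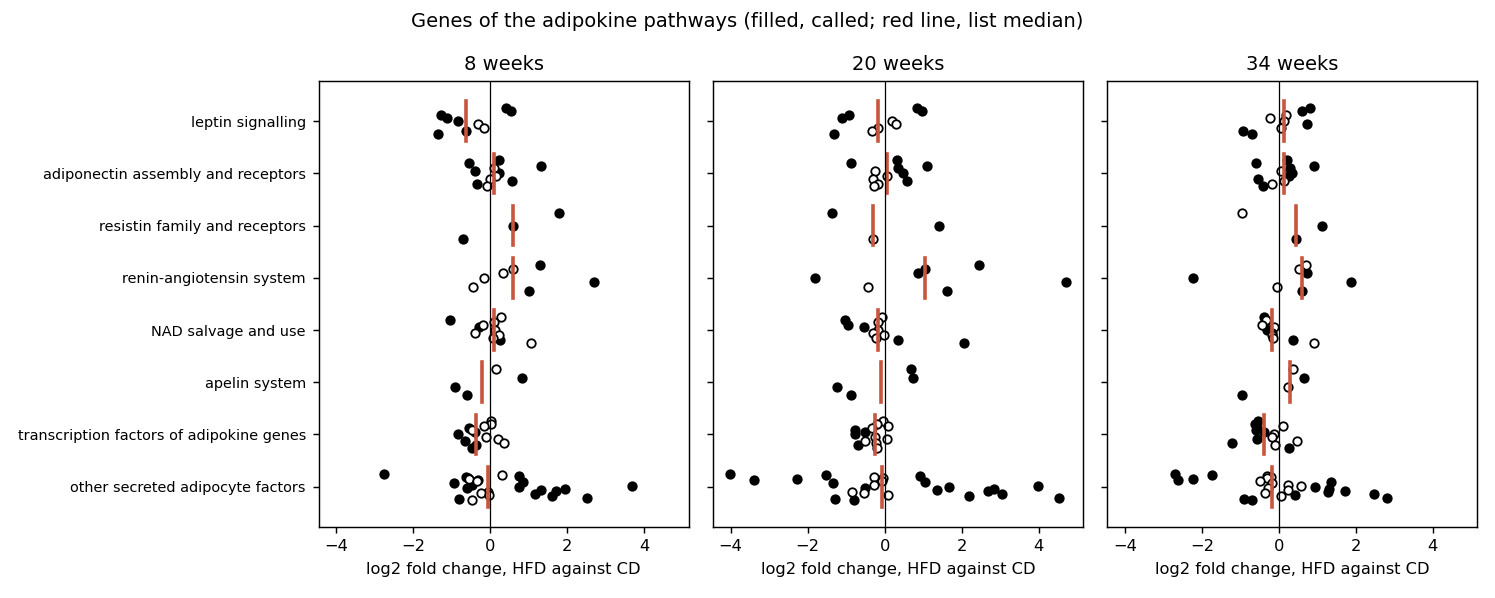
Each point is the log2 fold change of HFD against CD of 1 tested gene of 8 adipokine pathway lists at 8, 20 and 34 weeks, filled where called, with a red line at the list median. Called genes stand on both sides of 0 in most lists, from -4.03 (Cfd) to 4.72 (Anpep) at 20 weeks.

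**Figure D5:**
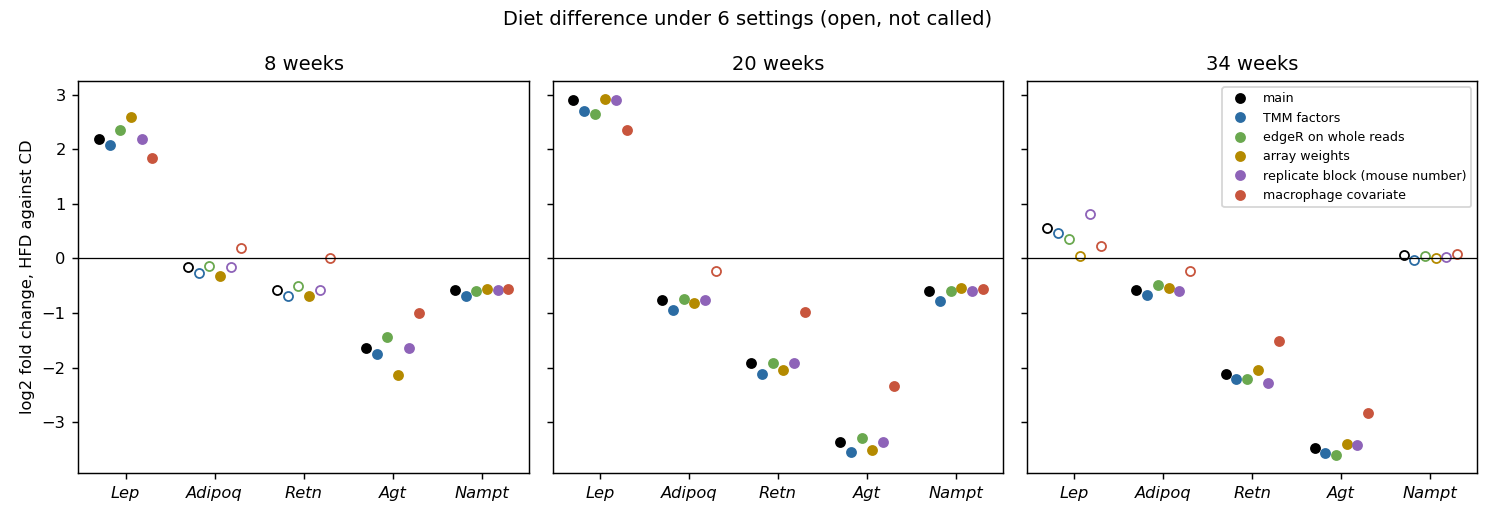
Each point is the log2 fold change of HFD against CD of a member under 1 of 6 settings, filled where called, in 3 panels by time. The 11 differences called in the reported fit kept their sign in all 6 settings. Array weights also called Adipoq (-0.32) and Retn (-0.69) at 8 weeks, where they called 7032 of 10343 genes. The macrophage covariate gave these 2 members 0.19 and 0.013 at 8 weeks. At 20 and 34 weeks it brought Adipoq to -0.22 and -0.23, Retn to -0.99 and -1.52 and Agt to -2.34 and -2.82.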

How the data were processed

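RNA-seq of 38 mice was analysed. According to the labels and the methods, the authors aligned TruSeq stranded reads to mm10 (GRCm38) with STAR, counted them on exons with featureCounts and merged 3 technical replicates of each mouse (114 labelled samples). The deposited values are CPM of 29132 genes that sum to 1000000 in each mouse. TMM normalization is named in the methods, but no TMM factor is visible in the values. All values (100%) were whole multiples of the CPM of 1 read within 0.1 reads, and these reads entered edgeR 4.0.16 as an alternative.

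The 10343 genes whose mean log2(CPM + 1) exceeded 2 entered a two-sided limma test (version 3.58.1, R 4.3.3) of the 6 groups together, with a mean-variance trend (32 residual degrees of freedom). The fit was tested on simulated data. Benjamini-Hochberg adjustment was over all genes tested, per comparison. A pseudocount of 1 CPM understates the changes of low genes. Intervals are 95%. In the macrophage covariate the mean log2(CPM + 1) of the macrophage markers was added to the fit. Levels per kb used exon lengths of GENCODE vM21, a later release than the one counted on. Reads are not independent molecules, and read counts cover counting error only. All 103 within-group pairs of libraries differed by more than sampling noise (chi-square per degree of freedom at least 10.6).

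The 6 members and the lists were chosen with earlier results of these data known. Named genes were the members, the 3 tested genes with the highest r to each member (predicted genes passed over), fixed receptors and partners, and at most 4 list genes called in 1 direction at each time, ranked by their smallest change. Naprt, Apela and Ccn4 of the lists were not analysed here.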

Additional observations from a re-analysis of the deposited data

Results flagged for a closer look

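The 36 combinations of member and group were examined for a mouse far from the rest of its group on the log2 scale, a pattern that chance gives in about 1 of 20 groups, and 3 were found. Lep in CD mouse 3 of 20 weeks was at 38.2 CPM, where the other mice of the group had 330.4 to 674 CPM, and the gap to the next mouse was 0.75 of the range. This mouse had the highest Adipoq, Retn and Agt of its group (6652.5, 2149.9 and 623 CPM). Without it the leptin difference between the diets at 20 weeks was 2.31 on the log2 scale. Retn in CD mouse 1 of 20 weeks was at 1255 CPM, below 1799 to 2149.9 CPM in the others. Apln in CD mouse 3 of 8 weeks was at 0.568 CPM, which is 6 reads, below 1.43 to 2.03 CPM.

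The diet difference changed between times, by limma's interaction terms, in 6 cases. Agt differed by -1.71 between 20 and 8 weeks and by -1.83 between 34 and 8 weeks, from a diet difference of -1.64 at 8 weeks to -3.35 and -3.47. Lep differed by -2.33 between 34 and 20 weeks, from 2.90 to 0.56. Nampt differed by 0.65 between 34 and 20 weeks and by 0.64 between 34 and 8 weeks, from -0.58 and -0.59 to 0.06. Retn differed by -1.53 between 34 and 8 weeks, from -0.58 to -2.11. These comparisons share mice with each other.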

How the results depend on the processing

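Of 705 recomputed log2 differences of the 5 tested members (without the fits that leave out a mouse), 645 kept direction and call, 23 lost their call, 17 gained one and 20 changed sign. None of these 20 was called in the reported fit. The cause of these changes was not tested. Members called changed by over 1.5 times in these cases. For the HFD step from 8 to 20 weeks, 1 was called with the macrophage covariate, 2 at an adjusted p under 0.01 and 2 to 4 with a mouse left out, against 4. The CD step from 8 to 20 weeks had 2 with array weights and 1 with the covariate, against 0. The covariate gave 1 for the CD step and 1 for the HFD step from 8 to 34 weeks. HFD against CD at 8 weeks had 5 with array weights, where 7032 of 10343 genes were called, against 4648 in the reported fit. For the change of the diet difference from 8 to 20 weeks there were 0 without the filter, 0 at an adjusted p under 0.01, 3 with array weights and 0 to 2 with a mouse left out, and from 20 to 34 weeks 1 without the filter, 1 at an adjusted p under 0.01 and 1 to 2 with a mouse left out. The mouse numbers did not pair the mice: of 90 same-numbered pairs 30 correlated above 0.1 (mean -0.038), and 4 of 38 mice correlated best with their own number. With the number as a replicate block, 0 members were called for the change of the diet difference from 8 to 20 weeks and 1 from 20 to 34 weeks, with 3, 5 and 3 in HFD against CD as reported. The block changed no other count by over 1.5 times.

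Signs changed as follows. With the macrophage covariate, HFD against CD at 8 weeks was 0.19 for Adipoq and 0.013 for Retn. The CD steps were 0.12 for Agt (8 to 20 weeks), 0.026 and 0.19 for Adipoq and Retn (20 to 34) and 0.33 and 0.71 for them (8 to 34). The HFD step from 20 to 34 weeks was -0.034 for Lep and 0.016 for Adipoq, and the change of the diet difference was 0.0016 for Nampt (8 to 20) and -0.01047 for Adipoq (20 to 34). With array weights Lep was -0.12 (HFD, 20 to 34), Nampt 0.026 (diet difference, 8 to 20), and Retn and Agt 0.00096 and 0.12 (diet difference, 20 to 34). Nampt at 34 weeks was -0.031 with TMM factors and -0.029 with median-of-ratios factors. With edgeR, Retn in CD from 8 to 34 weeks was 0.036 and Nampt 0.0019 (diet difference, 8 to 20). A pseudocount of 5 gave Agt 0.037 (diet difference, 20 to 34). With a mouse left out the ranges that crossed 0 were -0.15 to 0.29 for Lep and -0.24 to 0.032 for Adipoq (HFD, 20 to 34), -0.07037 to 0.042 for Nampt (diet difference, 8 to 20) and -0.30 to 0.071 for Agt (diet difference, 20 to 34). Fits of the compared groups alone gave no value for changes of the diet difference. Depth limited Apln, at 5 to 104 reads per mouse.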

Other observations

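Of the 25 tested genes listed as other secreted adipocyte factors, 4 are described here that were chosen after their values were seen, so that they stand for no pattern of the list. Sfrp5, an inhibitor of Wnt ligands, was higher in HFD by 3.67 and 3.97 on the log2 scale at 8 and 20 weeks (limma, adjusted p = 3.81e-06 and 2.67e-07), and at 34 weeks had 0.57 (limma, adjusted p = 0.348). Its mean in CD mice was 31.3, 25.02 and 247 CPM at the 3 times and in HFD mice 403, 296 and 286 CPM. Rbp4, the retinol carrier, had 0.31 at 8 weeks (limma, adjusted p = 0.41) and fell by 1.53 and 1.74 at 20 and 34 weeks (limma, adjusted p = 6.16e-05 and 3.69e-05), of which the fall at 20 weeks was lost with the macrophage covariate (-0.61, limma, adjusted p = 0.158). Lcn2 and Saa3, secreted proteins of the acute phase response, had -0.55 and -0.32 at 8 weeks (limma, adjusted p = 0.601 and 0.786), and fell by 2.28 and 3.38 at 20 weeks and by 2.24 and 2.63 at 34 weeks (limma, highest adjusted p = 0.0187).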
